A study of Mus musculus with 14 samples.

Results

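The p53 target genes described here are 10 genes chosen by symbol: Cdkn1a, Mdm2, Ccng1, Bax, Trp53inp1, Phlda3, Sesn2, Eda2r, Zmat3 and Aen. They are 10 of the 55892 gene symbols in the count tables of this series, and all 10 are in both tables. RNA of layer II/III, the superficial excitatory layers of the mouse cerebral cortex, was sequenced at postnatal day 5 in 14 libraries, with a table for a progenitor and one for a postmitotic experiment. Every group carried Lhx2lox/lox, a conditional allele of the LIM-homeodomain factor Lhx2, and came from cortex electroporated in utero. In the progenitor experiment, done at E15.5, the plasmid gave EGFP in controls (n = 4) and Cre-EGFP in libraries labelled mutant (n = 4). EGFP alone was electroporated into both groups of the postmitotic experiment, and the libraries labelled mutant (n = 3) differed from controls (n = 3) by NexCre/+, a Cre allele that acts in excitatory neurons after their last division. The series text names labelled neurons of the microdissected layer as the material. It gives no cell sort, and the share of labelled cells in a library is not known here. Because every library comes from electroporated cortex, mutant against control sets Cre against no Cre, and electroporation itself is not contrasted. No group had Cre without the floxed allele, so an effect of Cre itself and one of Lhx2 deletion cannot be told apart.

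The transcription factor p53 is held low by the ubiquitin ligase Mdm2 and its relative Mdm4, and is stabilised after DNA damage or other stress. It then switches on genes that halt the cell cycle, repair DNA, restrain growth, feed back on p53 itself or start apoptosis, and in young neurons apoptosis through Bax is its best known outcome. Cre can cut genomic sequences that resemble its target site, so transcripts of p53 targets are used to look for toxicity of the recombinase. For each member the question was whether its level differed between libraries labelled mutant and controls.

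p53 binds DNA as a tetramer, at pairs of a consensus decamer that is its own reverse complement. The p53 consensus decamer was searched on both strands, without mismatch, in RefSeq promoter windows (GRCm38.p6, 250 bases before to 50 after each annotated start), in which 8 of the 10 members have 10 windows. Trp53inp1 and Zmat3 are the other two members. The decamer stood in windows of 5 of these 8 members (62.5%), Cdkn1a, Mdm2, Ccng1, Bax and Aen, against 9.55% of 27025 genes in the same table. A pair of decamers at most 13 bases apart stood in 24 of 32851 windows (0.0731%), of which the upstream start of Cdkn1a is one, with 12 bases between its decamers. The 250 bases before 3 starts are shown because Cdkn1a had the smallest p of all members, Mdm2 has the decamer and did not pass the test, and Sesn2 fell without a decamer in its window. Capitals mark the decamers, 5′ to 3′.
Cdkn1a chr17:29090729-29090978, plus strand: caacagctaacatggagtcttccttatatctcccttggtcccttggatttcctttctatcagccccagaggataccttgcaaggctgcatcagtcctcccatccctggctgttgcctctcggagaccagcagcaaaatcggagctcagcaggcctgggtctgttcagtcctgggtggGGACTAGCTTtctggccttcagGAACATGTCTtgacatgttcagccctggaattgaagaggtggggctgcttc
Mdm2 chr10:117710759-117711008, minus strand: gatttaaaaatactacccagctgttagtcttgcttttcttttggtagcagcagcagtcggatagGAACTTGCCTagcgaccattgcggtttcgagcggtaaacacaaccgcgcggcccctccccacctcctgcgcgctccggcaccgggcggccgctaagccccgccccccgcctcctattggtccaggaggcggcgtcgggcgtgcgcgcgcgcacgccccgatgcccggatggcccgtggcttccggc
Sesn2 chr4:132510457-132510706, minus strand: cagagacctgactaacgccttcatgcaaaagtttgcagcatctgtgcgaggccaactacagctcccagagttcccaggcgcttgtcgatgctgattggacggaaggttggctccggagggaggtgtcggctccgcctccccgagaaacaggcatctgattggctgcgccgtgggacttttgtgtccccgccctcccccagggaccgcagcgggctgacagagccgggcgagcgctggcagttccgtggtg
The decamers of the remaining members are GGGCAAGCCT for Ccng1 (chr11:40755462-40755471), AGGCAAGCTT for Bax (chr7:45467090-45467099) and GGGCTTGTCC for Aen (chr7:78895937-78895946). The downstream start of Cdkn1a and the windows of Phlda3, Sesn2 and Eda2r held no exact match. Near matches are not marked, such as tgacatgttc directly after GAACATGTCT of Cdkn1a, which departs from the consensus only at its first base. A match is a string of letters and no evidence of binding. Responsive sites are also known outside such windows, as in the first intron of Mdm2.

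The progenitor libraries held 22677019 to 29497595 counts each and the postmitotic libraries 21605777 to 25891416, and all progenitor controls were deeper than all progenitor libraries labelled mutant. Lhx2 was not lower in the libraries labelled mutant: it ranged from 120 to 139 CPM (read counts relative to the TMM-scaled library total) in progenitor controls and from 114 to 140 CPM in their counterparts, and from 143 to 150 CPM and 171 to 184 CPM in the postmitotic experiment. Its postmitotic difference was 0.29 ± 0.06 (log2 ± SE), with an adjusted p = 0.0276 (edgeR, Benjamini-Hochberg). That call was lost without any 1 postmitotic library other than mutant 1, with adjusted p up to 0.184. The counts are per gene and do not separate reads of the floxed exons, so Lhx2 does not check the labels, and groups are called by them as given. Summed Y-linked transcripts were at most 0.0381 CPM in the progenitor controls, and among progenitor libraries labelled mutant they were at 0 CPM in library 1 and from 99.4 to 170 CPM in libraries 2 to 4, of which library 3 also had 554 CPM of Xist. They were above 100 CPM in 2 of 3 postmitotic controls and 1 of 3 postmitotic libraries labelled mutant. Summed CPM of 12 markers of layer II/III excitatory neurons ran from 2473 to 3048 in the progenitor and from 2662 to 2824 in the postmitotic libraries. Markers of astrocytes and radial glia (12 genes) ran from 2083 to 3004 and from 1170 to 1485 CPM, so markers of other cell types were present. In such bulk samples, fewer cells of a type and less RNA per cell cannot be told apart. The labels do not say whether each library is a separate animal, so p-values measure only how these libraries vary, which may be technical.

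In the progenitor experiment 3 of the 10 members fell (Cdkn1a, Zmat3 and Sesn2), 1 rose (Eda2r) and 6 did not pass the test. Genes were tested by quasi-likelihood in edgeR, with p-values adjusted after Benjamini and Hochberg over all tested genes, and a gene was called at an adjusted p under 0.05. Of all 15295 tested genes 23.4% were called, 11.4% lower and 12% higher, and 4 calls among 10 members are read against that background. The median log2 fold change of the members was 0.02, and that of all tested genes was 0.0040. In postmitotic libraries 0 of 10 members passed the same edgeR test, against 1.96% of 17775 genes (0.895% higher and 1.06% lower). No member was called lower in both experiments, as was 0.464% of the genes tested in both. Among the postmitotic results 1 member, Cdkn1a, had an unadjusted p under 0.05, and DESeq2 and limma-voom also called 0. The median log2 fold change of the members was -0.05 there, against -0.0022 over all tested genes.

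**Figure D1:**
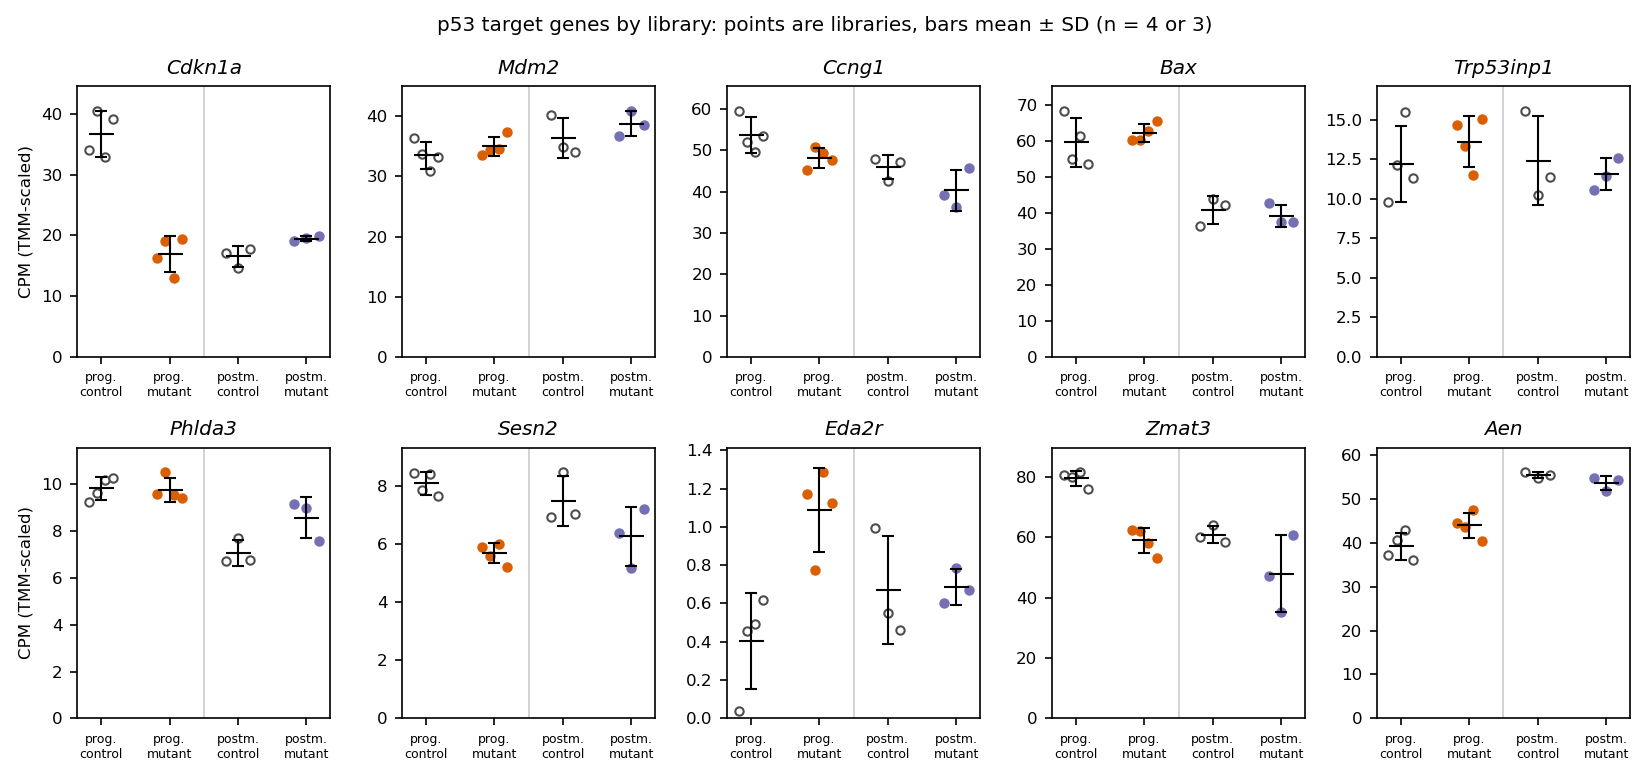
CPM (TMM-scaled, linear axis from 0) of each of the 10 genes in every library, as points, with the mean and SD of each group as bars (prog., progenitor, n = 4; postm., postmitotic, n = 3; filled points are libraries labelled mutant). Groups of the progenitor experiment do not overlap for Cdkn1a, Sesn2, Eda2r and Zmat3, with Cdkn1a at 33.0 to 40.6 CPM in controls and 12.9 to 19.4 CPM in libraries labelled mutant.

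Cdkn1a encodes p21, the inhibitor of cyclin-dependent kinases through which p53 halts the cell cycle. Its position is chromosome 17, 29090976 to 29100727, on the plus strand (build GRCm38/mm10, annotation GENCODE M21). Progenitor controls 1 to 4 had 34.0, 40.6, 33.0 and 39.2 CPM, and the libraries labelled mutant 1 to 4 had 16.3, 19.1, 12.9 and 19.4 CPM. All 4 controls were above all 4 libraries labelled mutant. The means were 36.7 ± 3.75 and 16.9 ± 3.01 CPM (SD, n = 4 each). Cdkn1a thus fell by 1.12 ± 0.12 (SE) on the log2 scale, or 2.17-fold, with an adjusted p = 0.000255 (edgeR, Benjamini-Hochberg). The exact permutation p of the CPM (two-sided) was 0.0286, the lowest possible with 4 libraries a group. Its p was rank 150 among the 15295 tested genes. AC167363.2, a gene model on the opposite strand that awaits experimental support (TEC), shares 273 exonic bases with Cdkn1a. No source used here gives the strand setting, so its reads could have entered the count.

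Cdkn1a did not pass the test in the postmitotic experiment. Controls 1 to 3 had 17.2, 14.6 and 17.8 CPM, and the libraries labelled mutant 1 to 3 had 19.0, 19.6 and 19.9 CPM. The groups did not overlap, with the libraries labelled mutant higher, as was so for 7.98% of all tested genes in that direction. The log2 fold change was 0.24 ± 0.11 (SE), and it had an adjusted p = 0.415 (edgeR, Benjamini-Hochberg). The difference between the experiments, tested as an interaction over the shared symbols, was 1.35 ± 0.17 (log2, postmitotic minus progenitor), with an adjusted p = 0.000299 (edgeR, Benjamini-Hochberg). Cdkn1a was the only one of the 10 members for which this difference passed, against 6.94% of 15643 genes. The other 9 differences had adjusted p from 0.187 (Eda2r) to 0.908 (Ccng1, edgeR, Benjamini-Hochberg).

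Zmat3 encodes a zinc finger RNA-binding protein that acts downstream of p53 on splicing and messenger stability (chromosome 3, 32334792 to 32366014, minus strand). Progenitor controls 1 to 4 had 80.7, 79.9, 81.7 and 76.0 CPM, and the libraries labelled mutant 1 to 4 had 62.4, 62.0, 58.3 and 53.3 CPM. The groups did not overlap, and the controls lay within a few CPM of each other. Zmat3 fell by 0.43 ± 0.06 (SE) on the log2 scale, with an adjusted p = 0.000637 (edgeR, Benjamini-Hochberg). For the postmitotic comparison the controls had 60.2, 64.2 and 58.5 CPM. The libraries labelled mutant 1 to 3 had 47.4, 35.4 and 60.9 CPM, so libraries 1 and 2 were below every control and library 3 was within their range. The log2 fold change there, -0.35 ± 0.18 (SE), had an adjusted p = 0.536 (edgeR, Benjamini-Hochberg). Without postmitotic mutant 3 the fall was called, at -0.56 with an adjusted p = 0.0203 (edgeR, Benjamini-Hochberg). The authors' deposited table gives -0.58 with an adjusted p = 0.00846 from DESeq2. Its base means are those of 4 libraries, the first and second of each group (within 0.1% for 100% of 17372 genes), so it was made without control 3 and mutant 3.

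Sesn2 encodes sestrin 2, which restrains the growth kinase mTORC1 and is induced by p53 and also by ATF4, the factor of the integrated stress response (chromosome 4, 132492032 to 132510501, minus strand). Progenitor controls 1 to 4 had 8.47, 7.86, 8.42 and 7.67 CPM, and the libraries labelled mutant 1 to 4 had 5.92, 5.61, 6.02 and 5.23 CPM. Again the groups did not overlap. Sesn2 fell by 0.51 ± 0.10 (SE) on the log2 scale, with an adjusted p = 0.00485 (edgeR, Benjamini-Hochberg). In the postmitotic experiment it had 6.94, 8.49 and 7.03 CPM in controls and 6.39, 5.19 and 7.23 CPM in libraries labelled mutant. These overlap, and the log2 fold change of -0.26 ± 0.16 (SE) did not pass, with a 95% interval from -0.59 to 0.08. Gm12981, annotated as antisense but on the same strand, overlaps Sesn2 with 0 exonic bases in common.

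Eda2r encodes a receptor for ectodysplasin A2, a member of the tumour necrosis factor receptor family whose transcript is a sensitive p53 target (chromosome X, 97333840 to 97377216, minus strand). It was by far the rarest member, with 1, 12, 13 and 18 counts in progenitor controls 1 to 4 and 27, 18, 31 and 26 counts in the libraries labelled mutant 1 to 4. That is 0.0407 to 0.619 CPM against 0.776 to 1.29 CPM, without overlap. Control 1, with its single count, was far below the other controls. Eda2r rose by 1.40 ± 0.44 (SE) on the log2 scale, with an adjusted p = 0.0387 (edgeR, Benjamini-Hochberg). The 95% interval of the log2 fold change, 0.44 to 2.37, was the widest of all members. The call ended without progenitor control 2 or 3 or without mutant 1, 3 or 4, with adjusted p of 0.0721, 0.0531, 0.0832, 0.101 and 0.0752 (edgeR, Benjamini-Hochberg). Among postmitotic libraries Eda2r had 25, 14 and 10 counts in controls and 15, 20 and 16 counts in libraries labelled mutant, a log2 fold change of 0.02 ± 0.36 (SE).

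Progenitor library 1 labelled mutant had 0 CPM of Y-linked transcripts and 1658 CPM of Xist, and the 4 controls had 795 to 1245 CPM of Xist. Because the groups of Cdkn1a, Zmat3, Sesn2 and Eda2r did not overlap, this library necessarily lay outside the range of the controls for each. That position is thus no separate test of the Y-linked difference. With Y-linked CPM as a covariate, the log2 fold changes were -1.21 for Cdkn1a, -0.35 for Zmat3, -0.44 for Sesn2 and 1.53 for Eda2r. Their adjusted p then stood at 0.0140, 0.0550, 0.144 and 0.188 (edgeR, Benjamini-Hochberg), and of the 4 only Cdkn1a was called. The number of all genes called was 948 in place of 3577 under that covariate. The covariate (log2 of Y-linked CPM plus 1) was near 0 in all progenitor controls and in library 1 labelled mutant, and high in the other libraries labelled mutant. It thus largely follows the label, and its progenitor fits rest mostly on library 1 labelled mutant. A call lost under it, here or below, cannot tell the label from the Y-linked difference.

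**Figure D2:**
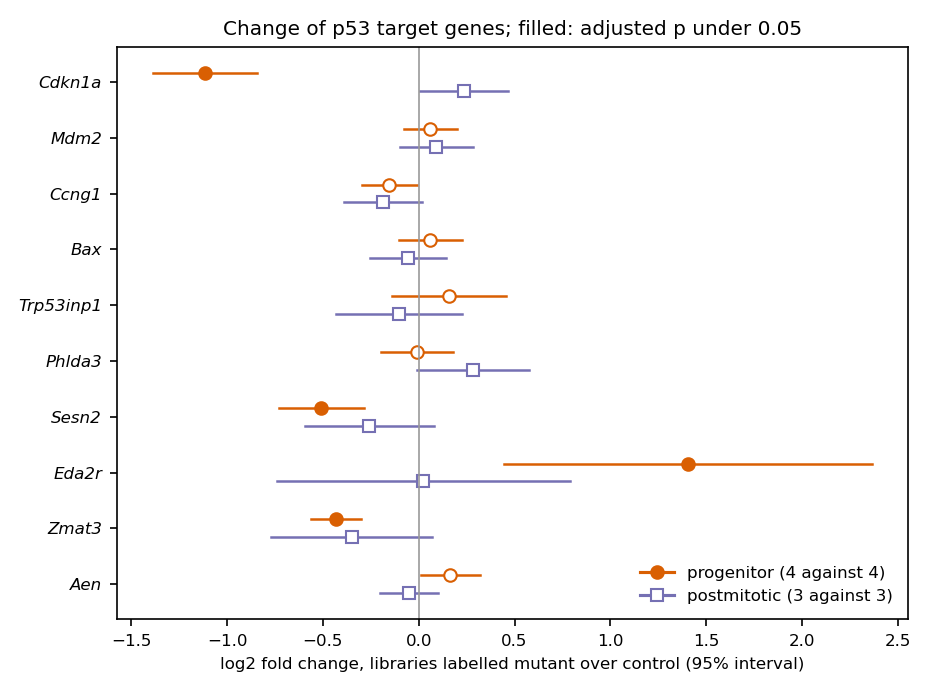
Log2 fold change of each gene, libraries labelled mutant over control, with its 95% interval (horizontal axis), in the progenitor (circles) and postmitotic experiment (squares). Filled symbols passed an adjusted p under 0.05; Cdkn1a stands at -1.12 in the progenitor and at 0.24 in the postmitotic experiment, while the intervals of Mdm2 and Bax include 0 in both.

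Of the genes that feed back on p53, neither Mdm2 nor Ccng1 passed the test. Mdm2, the ligase that marks p53 for degradation and is itself a p53 target (chromosome 10, 117688875 to 117710758, minus strand), had 36.3, 33.7, 30.9 and 33.2 CPM in progenitor controls and 33.6, 34.4, 34.5 and 37.3 CPM in libraries labelled mutant. The groups overlapped, and the change was 4.31% with a 95% interval from -5.26% to 14.8%. In postmitotic libraries Mdm2 had 40.2, 34.9 and 34.0 CPM in controls and 36.8, 40.9 and 38.5 CPM in libraries labelled mutant, a change of 6.58% with an interval from -6.52% to 21.5%. Ccng1, cyclin G1, which recruits a phosphatase to Mdm2, had 59.7, 52.1, 49.5 and 53.6 CPM in progenitor controls and 45.2, 50.8, 49.3 and 47.7 CPM in libraries labelled mutant. The log2 fold change of -0.15 ± 0.07 (SE) had an adjusted p = 0.11 (edgeR, Benjamini-Hochberg). For the postmitotic comparison it was -0.19 ± 0.09 (SE), with 42.6 to 48.0 CPM in controls and 36.2 to 45.8 CPM in libraries labelled mutant, and did not pass either.

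Bax and Aen, which are tied to cell death, did not pass in either experiment. Bax, the pore-forming protein of the outer mitochondrial membrane (chromosome 7, 45461697 to 45466898, minus strand), had 68.4, 54.9, 61.4 and 53.7 CPM in progenitor controls and 60.1, 60.3, 62.6 and 65.5 CPM in libraries labelled mutant. The change was 4.29%, with a 95% interval from -6.98% to 16.9%. In the postmitotic experiment Bax had 36.4, 43.9 and 42.2 CPM in controls and 42.8, 37.6 and 37.4 CPM in libraries labelled mutant, a change of -3.93% with an interval from -16.3% to 10.2%. Gm45808, a coding gene on the same strand, shares 192 exonic bases with Bax. How reads of these bases were assigned is not known here and could affect the count of Bax. Aen, a nuclease of apoptotic cells, had 36.1 to 42.9 CPM in progenitor controls and 40.4 to 47.4 CPM in libraries labelled mutant (log2 fold change 0.16 ± 0.07, SE), with an adjusted p = 0.114 (edgeR, Benjamini-Hochberg). Among postmitotic libraries Aen was lower in all 3 libraries labelled mutant (51.8 to 54.8 CPM) than in the controls (54.9 to 56.1 CPM), with no overlap but a log2 fold change of only -0.05 ± 0.07 (SE). Groups without overlap and lower in the libraries labelled mutant made up 8.44% of all tested genes there.

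Phlda3, a competitor of the kinase AKT for membrane lipids, had 9.24 to 10.3 CPM in progenitor controls and 9.42 to 10.5 CPM in libraries labelled mutant, with a log2 fold change of -0.01 ± 0.09 (SE). In postmitotic libraries it had 6.71, 7.70 and 6.75 CPM in controls and 9.17, 9.01 and 7.56 CPM in libraries labelled mutant. Library 3 labelled mutant fell below control 2, and the log2 fold change of 0.28 ± 0.14 (SE) did not pass, with an adjusted p = 0.457 (edgeR, Benjamini-Hochberg). Trp53inp1, a nuclear protein that promotes p53 activity and autophagy, had 12.2 ± 2.41 CPM (SD, n = 4) in progenitor controls and from 11.5 to 15.0 CPM in their counterparts. Postmitotic controls had 10.3 to 15.6 CPM and their counterparts 10.6 to 12.6 CPM. Its log2 fold changes were 0.16 ± 0.14 and -0.10 ± 0.15 (SE), and its groups overlapped in both experiments.

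The members did not move as a block. In the progenitor experiment 5 of 10 had a log2 fold change below 0 and 5 above, and in the postmitotic experiment 6 and 4. The CPM of the groups did not overlap for 4 of 10 members in the progenitor experiment, against 27% of all tested genes, and for 2 of 10 (Cdkn1a and Aen) in the postmitotic experiment, against 16.4%. Zmat3, Sesn2 and Ccng1 were the members with a log2 fold change below -0.1 in both experiments, at -0.43, -0.51 and -0.15 in the progenitor and -0.35, -0.26 and -0.19 in the postmitotic experiment. None of the 3 passed in the latter.

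**Figure D3:**
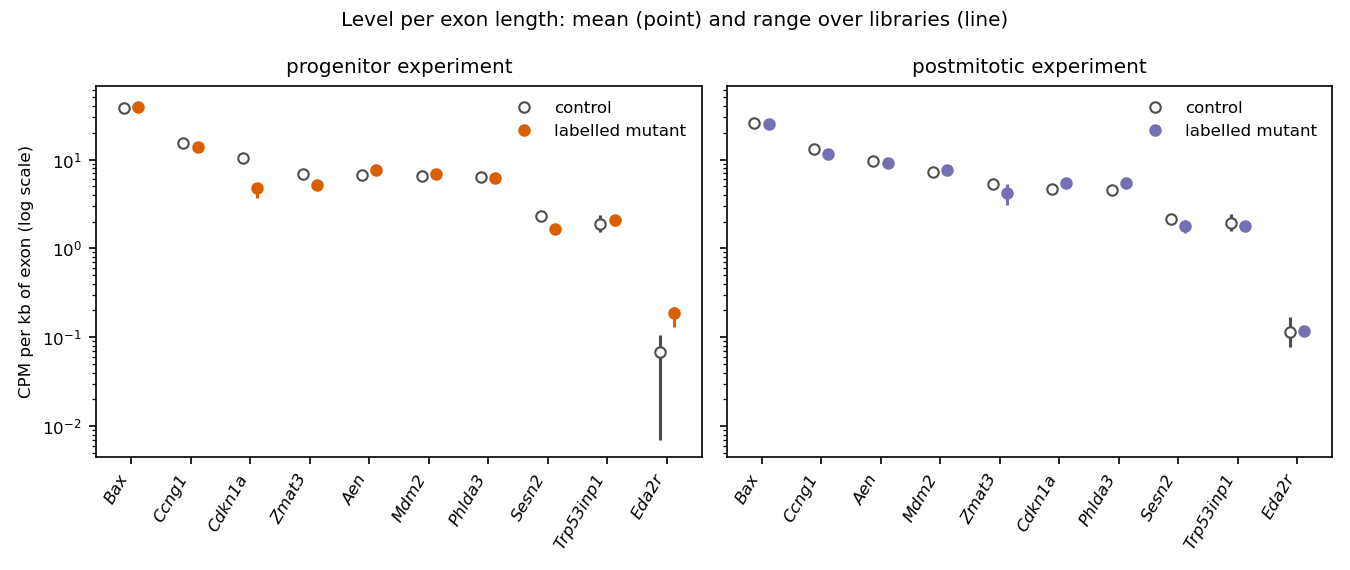
Level of each gene per exon length (CPM per kb of union exon, log axis), as the mean (point) and range (line) over the libraries of a group, ordered by the controls of each experiment (open, control; filled, labelled mutant). Bax is highest in both, at 37.8 and 25.9 in controls, and Eda2r lowest, at 0.0683 and 0.114.

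Per exon length, the members spanned a wide range of levels in controls. In progenitor controls the level was highest for Bax (37.8 ± 4.30 CPM per kb, SD, n = 4), followed by Ccng1 (15.3 ± 1.22) and Cdkn1a (10.3 ± 1.06), each apart from the next. Zmat3 (6.96 ± 0.217), Aen (6.77 ± 0.534), Mdm2 (6.60 ± 0.438) and Phlda3 (6.31 ± 0.317) came next, and each of them overlapped its neighbour. Sesn2 (2.33 ± 0.115) and Trp53inp1 (1.88 ± 0.372) also overlapped, and Eda2r was last at 0.0683 ± 0.0426 CPM per kb. In progenitor libraries labelled mutant Cdkn1a stood in the seventh place, at 4.77 ± 0.846 CPM per kb, and its range overlapped that of Zmat3 in the sixth. In the postmitotic libraries it stood in the sixth place in both groups, at 4.66 ± 0.472 and 5.49 ± 0.120 CPM per kb (SD, n = 3), and overlapped Phlda3 in both. The tables were scaled separately, so these levels were not tested across experiments.

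The genes around p53 were read from lists. Trp53, which encodes p53, was at 22.4 ± 0.678 and 23.8 ± 2.33 CPM in progenitor controls and libraries labelled mutant, and at 25.5 ± 1.98 and 26.9 ± 1.02 CPM in the postmitotic experiment (SD), and passed in neither. p53 is regulated chiefly as a protein, which these data do not measure. Of all genes tested in the progenitor experiment, 12% were called higher and 11.4% lower. Of 19 tested genes of p53, its family and its regulators, 5 rose and 0 fell in the progenitor experiment, with a median log2 fold change of 0.13. They were Mdm4, the Mdm2 relative that blocks p53 (0.30 ± 0.06), the DNA damage kinases Atr (0.38 ± 0.08), Atm (0.37 ± 0.09) and Chek1 (0.63 ± 0.15), and Usp7, a deubiquitinase of Mdm2 and p53 (0.15 ± 0.04, log2 ± SE each). With Y-linked CPM as a covariate only 1 of them was called. In the postmitotic experiment 0 of 19 passed edgeR's test, against 1.96% of all genes tested there. Of the 19, 0 had an unadjusted p under 0.05, and Mdm4 stood at -0.01 ± 0.08.

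Among 28 other tested p53 targets, 5 rose and 5 fell in the progenitor experiment, against 12% and 11.4% of all tested genes. Pmaip1, which encodes the pro-apoptotic protein Noxa, fell by 1.05 ± 0.16 (SE) on the log2 scale, from 3.19 ± 0.261 to 1.54 ± 0.198 CPM (SD, n = 4 each). Sesn1, a relative of Sesn2, fell by 0.35 ± 0.06, Ak1, an adenylate kinase, fell by 0.27 ± 0.05, and Perp and Ddit4 were the other two that fell. Ddb2, a nucleotide excision repair protein that recognises ultraviolet damage, rose by 0.72 ± 0.13. The repair genes Xpc and Ercc5 (0.32 ± 0.06 and 0.20 ± 0.06), the death-domain gene Pidd1 (0.47 ± 0.15) and Ephx1, an epoxide hydrolase (0.62 ± 0.15), rose as well. Bbc3, which encodes the pro-apoptotic protein Puma, was at 35.5 ± 1.43 and 31.8 ± 3.97 CPM (SD) and did not pass. Usp7, Perp, Ddit4, Xpc, Ercc5, Pidd1, Ephx1 and Bbc3 are named after their values were seen. The median log2 fold change of this list was -0.02. Without any 1 of progenitor controls 2 and 4 or libraries 1 to 4 labelled mutant, 3 rather than 5 rose, and with Y-linked CPM as a covariate 0 rose and 2 fell. Among postmitotic libraries 0 of 28 passed edgeR's test, against 1.96% of all genes tested there. Of the 28, 2 had an unadjusted p under 0.05, limma-voom called 0 and DESeq2 called 1, which was higher.

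**Figure D4:**
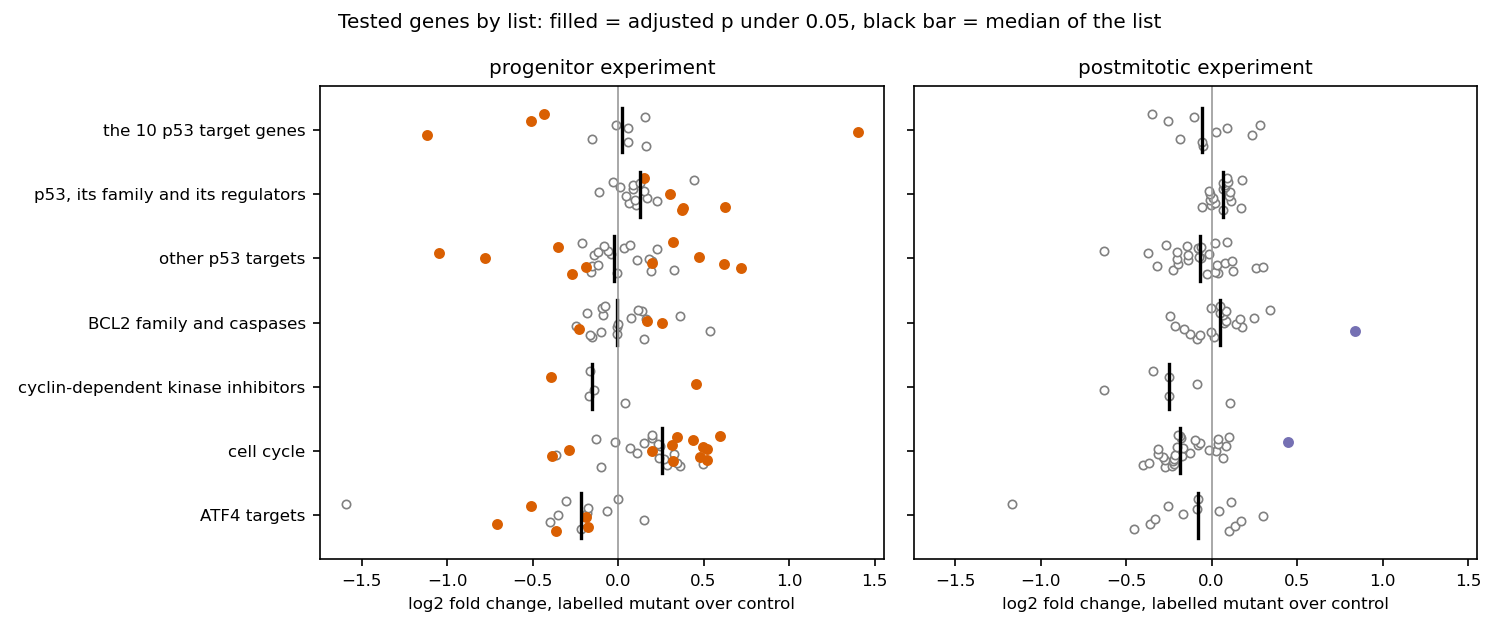
Log2 fold change of every tested gene (points, horizontal axis), libraries labelled mutant over control, by list in the progenitor (left) and postmitotic experiment (right); filled points passed an adjusted p under 0.05 and black bars are medians of the lists. In the progenitor experiment the cell cycle list has its median at 0.26 and the ATF4 targets at -0.22, against 0.02 for the 10 p53 target genes.

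Of 21 tested genes of the BCL2 family and caspases, 2 rose and 1 fell in the progenitor experiment, against 12% and 11.4% of all tested genes. The gene that fell was the pro-survival Bcl2l2, by 0.23 ± 0.05 (SE) on the log2 scale. The rise of Casp2, a caspase (0.25 ± 0.08, log2 ± SE), ended without each library other than control 3 (highest adjusted p = 0.117, edgeR, Benjamini-Hochberg). In postmitotic libraries Bcl2l11, which encodes the pro-apoptotic protein Bim, rose by 0.84 ± 0.20, from 4.58 ± 0.354 to 8.17 ± 2.28 CPM (SD, n = 3 each), with an adjusted p = 0.0482 (edgeR, Benjamini-Hochberg). Bcl2l11 was the only gene of this list that edgeR called there, against 0.895% of all tested genes called higher and 1.06% lower. That call ended without any 1 library other than mutant 1, with adjusted p up to 0.203, and limma-voom did not make it.

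Of 30 tested cell cycle genes, 10 rose and 2 fell (Ccne1 and Cdk6) in the progenitor experiment, against 12% and 11.4% of all tested genes. The median log2 fold change of the list was 0.26. Top2a, the topoisomerase of dividing cells, rose by 0.60 ± 0.12 and Cenpf, a kinetochore protein, by 0.52 ± 0.10 (log2 ± SE). The falls were 0 on library totals alone, and 0 or 1 without any 1 library. The count of rises was 5 without control 2, control 4 or mutant 1, 6 without mutant 3, 16 without control 3 and 4 with Y-linked CPM as a covariate. Of 6 other tested inhibitors of cyclin-dependent kinases, 1 fell (Cdkn2d, -0.39 ± 0.06) and 1 rose (Cdkn2c, 0.45 ± 0.11), and Cdkn1b, the close relative p27, was at 0.04 ± 0.06. For the postmitotic comparison the cell cycle list had 1 rise (Mcm6) and 0 falls with a median of -0.18. Of all genes tested there, 0.895% were called higher and 1.06% lower. The call of Mcm6 ended without any 1 library other than mutant 3, with adjusted p up to 0.131 (edgeR, Benjamini-Hochberg). For the 6 inhibitors the count there was 0 by edgeR, with 1 unadjusted p under 0.05.

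Sesn2 also belongs to a list of ATF4 targets, with a median log2 fold change of -0.22 in the progenitor experiment. Against 11.4% lower and 12% higher among all tested genes, 5 of 15 fell and 0 rose there. Besides Sesn2 they were Asns, asparagine synthetase (-0.36 ± 0.07), Cebpb, a stress-induced transcription factor (-0.71 ± 0.14), Ddit4, an mTORC1 inhibitor that is also counted among the p53 targets (-0.19 ± 0.05), and Atf4 itself (-0.18 ± 0.05, log2 ± SE). The count was 3 without control 4, mutant 2 or mutant 3, and 1 with Y-linked CPM as a covariate. In the postmitotic experiment 0 of 14 passed edgeR's test, against 1.96% of all genes tested there. Of the 14, 2 had an unadjusted p under 0.05, limma-voom called 0 and DESeq2 called 1, which was higher.

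Markers of other cell types are given beside these values, against the 23.4% of all genes called in the progenitor experiment. The 12 microglial markers summed to 167 to 251 CPM in controls and 143 to 193 CPM in libraries labelled mutant, with 12 of 12 log2 fold changes below 0 and 2 called (Aif1 and Ctss). Those calls were 0 without control 2, control 3, mutant 2 or mutant 3, 1 without control 1 or mutant 4, and 0 with Y-linked CPM as a covariate. The 13 endothelial and mural markers summed to 382 to 554 and 444 to 636 CPM, with 12 of 13 above 0 and 3 called higher. That count was 1 without control 2, control 4, mutant 1 or mutant 3 and with the covariate, 5 without mutant 2 and 7 without control 3. The 12 astrocyte and radial glia markers summed to 2393 to 3004 and 2083 to 2502 CPM, with 6 of 12 below 0, 4 called lower and 0 higher. Without control 3, 5 of them were called higher, without mutant 2 or mutant 4 it was 1, and with the covariate 1 was called lower. The oligodendrocyte lineage (12 markers) summed to 649 to 763 and 661 to 817 CPM, with 9 of 12 below 0 and a median log2 fold change of -0.19, although the 3 called were higher. Without mutant 4, 5 of its markers were called lower, and with the covariate 1 was called higher. Interneuron markers (12) summed to 542 to 681 and 550 to 651 CPM, with 7 of 12 below 0 and 2 called lower. There 4 were called lower without control 3 and 0 with the covariate, and without control 2 and control 4 in turn 1 and 2 were called higher. Of the 12 excitatory markers 4 rose and 2 fell, with sums of 2824 to 3048 and 2473 to 2852 CPM, and with the covariate 0 rose. No marker of these lists was at 0 in any progenitor library, and their part in the values of Cdkn1a, Zmat3, Sesn2 and Eda2r was not tested.

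Of all genes tested in the postmitotic comparison, edgeR called 1.96%, with 0.895% higher and 1.06% lower. Beside that share, edgeR and limma-voom called 0 markers of microglia, astrocytes and radial glia, the oligodendrocyte lineage, endothelium and interneurons. At so low a share, 0 calls in lists this short say little about their cell types. DESeq2 called 2 astrocyte and radial glia markers lower and 0 of the other lists. All 12 astrocyte and radial glia markers were below 0 there and 6 had an unadjusted p under 0.05, with sums of 1345 to 1485 CPM in controls and 1170 to 1319 CPM in libraries labelled mutant, and without mutant 3 edgeR called 2 of them lower. Unadjusted p under 0.05 numbered 1 each for endothelium and interneurons and 0 for microglia and the oligodendrocyte lineage, and the sums of these 4 lists overlapped. Excitatory markers had 2 rises (Neurod2 and Tbr1) and 5 falls (Camk2a, Cux1, Neurod6, Rorb and Slc17a6). There were 3 falls without control 1 or control 2 and 1 rise without control 2. Only the libraries labelled mutant carried NexCre/+, and an effect of that allele itself on these genes, Neurod6 among them, was not tested.

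The genes whose levels followed Cdkn1a most closely over the 8 progenitor libraries, among 11629 others with a mean of at least 5 CPM, were the phosphodiesterase Pde4a (Pearson r = 0.989), the zinc finger gene Zfp322a (0.985) and the lipid kinase subunit Pik3cb (0.983). All 3 fell, by 0.36 ± 0.05, 0.22 ± 0.05 and 0.34 ± 0.06 (log2 ± SE). Over the 6 postmitotic libraries, among 11808 others, they were Galntl6 (0.985), Ptpdc1 (0.982) and Cntn1 (0.975), none of which passed the test. These correlations describe libraries that share a group difference and are given without a test.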

How the data were processed

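Polyadenylated RNA was sequenced (paired reads of 150 bases, directional library kit, per the labels' protocols), and the authors deposited whole-number read counts per gene symbol for each experiment. The submitters' processing notes name the tools HISAT2, featureCounts and DESeq2 and the build mm10. No source used here gives versions, annotation or strand setting. The authors also deposited DESeq2 tables that hold log2 fold changes, SE, p-values and adjusted p-values, per the file headers. In them missing values stand as 0, so the adjusted p of Eda2r in the postmitotic table was not used. The files held 0 columns of other samples.

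For each experiment separately, edgeR 4.0.16 (R 4.3.3) was run with filterByExpr, TMM scaling and robust glmQLFit and glmQLFTest, and p-values were adjusted by Benjamini-Hochberg over all genes tested. An SE is |log2 fold change| over the root of F, and 95% intervals use the t distribution. CPM use TMM-scaled library sizes. The interaction was fitted to all 14 libraries over the 24690 shared symbols. No 2 replicates were alike within sampling noise: chi-square over its degrees of freedom ran from 6.73 to 20.7. Positions are those of GENCODE M21, and promoters those of RefSeq (GRCm38.p6). The procedure was also run on simulated counts of a fixed dispersion, without differences in Y-linked transcripts or cell types between libraries. Its outcome is not reported here and says nothing on such differences.

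All 10 members are named, with up to 4 called genes of smallest p per list (2 where none passed), Trp53, Mdm4, Lhx2 and the 3 genes most like the member with the smallest p. Members, lists and alternatives (DESeq2 1.42.0, limma 3.58.1 with voom, other scaling, filters and thresholds, a replicate block, Y-linked CPM as a covariate, thinned counts, each library left out) were chosen with earlier results of these data known. The values of 1 listed gene are not reported here.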

Additional observations from a re-analysis of the deposited data

Results flagged for a closer look

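Phlda3 in progenitor library 2 labelled mutant stood at 10.5 CPM, apart from the other 3 libraries of its group (9.42 to 9.57 CPM). Among 20 groups of 4 libraries examined in this way, chance alone marks about 1 in 20. The difference between the experiments in the log2 fold change of Cdkn1a, 1.35 (postmitotic minus progenitor), passed the test of the interaction and did so in each of the 19 alternatives run, with values from 1.25 to 1.43.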

How the results depend on the processing

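Of the 10 members, 4 were called in the progenitor experiment, 2 of them when tested against a fold of 1.2, 1 with Y-linked CPM as a covariate, and 3 to 4 with each library left out. In postmitotic libraries 0 were called, 1 (Zmat3) with no filter on low counts, 1 (Zmat3) with controls 1 and 2 against mutants 1 and 2, and 0 to 1 with each library left out. The difference between experiments was called for 1 member under every alternative. All genes called were 3577 in the progenitor experiment, 1567 at an adjusted p under 0.01, 663 against a fold of 1.2, 948 with the Y-linked covariate, and 2383 (without mutant 3) to 3712 with each library left out. For the postmitotic comparison they were 348, 527 with DESeq2, 723 with no filter, 146 at an adjusted p under 0.01, 111 against a fold of 1.2, and 160 (without control 2) to 467 with each library left out, with 197 without control 3. Cdkn1a kept its progenitor call in 23 of 23 alternatives, from -1.21 to -1.01 on the log2 scale. Sesn2 lost its call against a fold of 1.2 and with the Y-linked covariate, Zmat3 with the latter, and Eda2r in 9 of 21.

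Signs changed only for values that passed no test. Progenitor Phlda3 was 0.0080 on library totals alone and -0.046 to 0.014 with each library left out, and progenitor Lhx2 was -0.015 to 0.080. Postmitotic Eda2r was -0.0033 on library totals, -0.15 with controls 1 and 2 against mutants 1 and 2, and -0.17 to 0.43 with each library left out. Postmitotic Bax was 0.0033 with those 4 libraries, Mdm4 was 0.030 with the Y-linked covariate and -0.052 to 0.047 with each library left out, and Trp53inp1 was -0.22 to 0.096. The difference between experiments for Ccng1 was 0.095 with the Y-linked covariate and -0.13 to 0.041 with each library left out, for Mdm2 -0.011 to 0.12, and for Zmat3 -0.12 to 0.26. The cause of these shifts was not tested.

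Replicate numbers did not pair the libraries: deviations of libraries with the same number correlated from -0.44 to 0.09 in the progenitor and from -0.20 to 0.03 in the postmitotic experiment. With the replicate number as a block, 3 progenitor members were called (Eda2r was lost, adjusted p = 0.0661 (edgeR, Benjamini-Hochberg)) among 3073 genes, and 0 postmitotic members among 246. With 1 to 31 counts a library, depth limits Eda2r.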
